A study of Mus musculus with 3 samples.

Results

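Frame-preserving skipped exons are cassette exons whose length is a multiple of 3 nt, so that a transcript with the exon and a transcript without it are read in the same frame. The exons described here were those of 52 to 250 nt whose length divides by 3, taken from every skipped exon event in the 3 deposited tables. The choice used length alone and no measured value. It gave 2450 of 6532 skipped exon events, which came from 2314 distinct exons of 1897 genes. Of these exons, 128 were listed as more than 1 event, up to 4, because the same exon was measured between different neighbouring exons. The remaining events were 2978 frame-shifting exons of the same length range, 787 exons under 52 nt and 317 exons over 250 nt.

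RNA-Seq of the hippocampus came from 3 wild-type C57BL/6J mice with a labelled age of 10 weeks, 1 mouse in each group. Every mouse had been injected with an adeno-associated virus of serotype 9 (AAV9), and the repeat was carried in the 3′ part of a reporter transcript. CUG10 + vehicle received the virus with 10 CUG repeats and vehicle, CUG300 + vehicle received the virus with 300 CUG repeats and vehicle, and CUG300 + CWG-cPIP received 300 repeats together with CWG-cPIP, a cyclic pyrrole-imidazole polyamide that binds CAG/CTG repeat DNA. The virus was delivered to CA1 of the dorsal hippocampus, while the RNA came from the hippocampus, and the number of transduced cells in the sample is not given in the sources used here. With 1 mouse in a group, no difference below has a replicate check, and every interval covers counting error only.

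Alternative exons of this kind add or remove a stretch of residues without altering the protein downstream, and in brain they are known for tuning receptor, channel and adhesion proteins. Exons whose length is not a multiple of 3 nt instead shift the frame when skipped and commonly bring in an early stop codon, which can target the transcript for decay. Muscleblind-like (MBNL) proteins bind UGCU and related tetramers and are held on expanded CUG RNA in myotonic dystrophy type 1 (DM1), where exons that depend on them are spliced in their fetal pattern. The 3 comparisons asked which exons differ when the expanded repeat is expressed and which differ when CWG-cPIP is given with it.

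By the GENCODE M21 annotation of the mm10 build, both ends of 2297 of the 2314 exons (99.3%) were those of an annotated exon. Of all 2314 exons, 2022 (87.4%) were wholly coding, 125 (5.4%) were partly coding and partly untranslated, 110 (4.75%) lay in a 5′ UTR, 2 in a 3′ UTR and 38 (1.64%) in noncoding transcripts. Frame-shifting exons of the same length range were coding in 80.8%. The median exon had 108 nt, with quartiles of 81 and 144 nt. For 2007 exons the annotated transcript held a complete coding sequence, so that the outcome of removing the exon could be computed. The original stop codon was kept in 1995 (99.4%) of them and an earlier stop arose in 12 (0.598%), which included Atp1b1, Axl and Cntnap5a. Of 2290 frame-shifting exons assessed in the same way, 2175 (95%) gave an earlier stop and 0 kept the original one. The residues removed by skipping ran from 18 to 83, with a median of 36. The exon began between codons (phase 0) in 52% of the 2007 exons, after the first base of a codon in 34.5% and after the second in 13.5%.

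Sequences are shown for 4 wholly coding exons that passed the exact test described below, because these carry the differences best supported by counts. They are reference sequence from the GENCODE M21 transcripts on mm10, written 5′ to 3′ on the sense strand. Capitals mark MBNL tetramers, which are TGCT and TGCC as well as CGCT and CGCC. The Enpp2 exon lies on the minus strand at chr15:54851348-54851422, the Hnrnpa2b1 exon on the minus strand at chr6:51464428-51464547, the Clta exon on the plus strand at chr4:44030215-44030268 and the Atp6v1h exon on the plus strand at chr1:5101070-5101123.
Enpp2 exon of 75 nt: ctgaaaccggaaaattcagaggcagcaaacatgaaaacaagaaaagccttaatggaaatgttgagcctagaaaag
Hnrnpa2b1 exon of 120 nt: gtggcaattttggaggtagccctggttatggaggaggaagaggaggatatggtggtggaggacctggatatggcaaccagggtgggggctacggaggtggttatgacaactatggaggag
Clta exon of 54 nt: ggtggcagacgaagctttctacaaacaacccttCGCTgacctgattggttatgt
Atp6v1h exon of 54 nt: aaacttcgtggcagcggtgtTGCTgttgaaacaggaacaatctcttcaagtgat

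The Enpp2 and Hnrnpa2b1 exons held 0 MBNL tetramers and the Clta and Atp6v1h exons 1 each. The share of G and C was 55% in the Hnrnpa2b1 exon and 38.7% in the Enpp2 exon. Over all 2297 exons with sequence, 74.3% held at least 1 of the 4 tetramers, counted with overlaps on the sense strand, at a median of 1.26 per 100 nt. Frame-shifting exons of the same length range had the tetramers in 76% and a median of 1.3 per 100 nt. The hexamer TGCATG, which RBFOX proteins bind, was in 3.05% of the exons and in 3.77% of the frame-shifting ones. CTG was in 91.7% and 92.3%. Only exon sequence was searched, and introns, where MBNL and RBFOX also bind, were not analysed here.

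Inclusion is given as percent spliced in (PSI) on a scale from 0 to 1, the share of reads for the inclusion form once both counts are scaled by the length over which each form can be counted. The exons described here had 187478 counts in CUG10 + vehicle, 161921 in CUG300 + vehicle and 167294 in CUG300 + CWG-cPIP, or 38.2%, 34% and 37.6% of the counts of all skipped exons. The median event had 19, 12 and 22 counts, of which 1 was a skipping count in each library. Counts for all 3 libraries were present for 2140 events, and 777 events, from 640 genes, had at least 20 in each. A pair's table listed only exons with both forms among its reads: all listed events had at least 1 inclusion and 1 skipping count over the pair, and in 45.4% to 47.6% of listed members there was just 1 skipping count. Exons that were never skipped are therefore not among them.

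Most of the 777 deeper events were included nearly always. The median PSI was 0.988 in CUG10 + vehicle, 0.974 in CUG300 + vehicle and 0.987 in CUG300 + CWG-cPIP. A PSI between 0.1 and 0.9, called intermediate below, was measured in 133 events (17.1%), 163 events (21%) and 142 events (18.3%) of these libraries. Frame-shifting exons of the same length range had intermediate PSI at 10.1%, 14.7% and 9.92% of 1149 events, and medians of 1, 0.986 and 1. The share of intermediate exons was thus highest in CUG300 + vehicle in both classes, and that library also had the fewest counts per event. Intermediate PSI was more common outside this length range. It took 29.3%, 26.9% and 29.3% of 167 events under 52 nt and 22.4%, 35.9% and 25% of 156 events over 250 nt. With at least 50 counts in every library, the shares of frame-preserving events were 12.5%, 12.5% and 11.2%. Events share exons, genes and libraries, so these shares are a description.

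**Figure D1:**
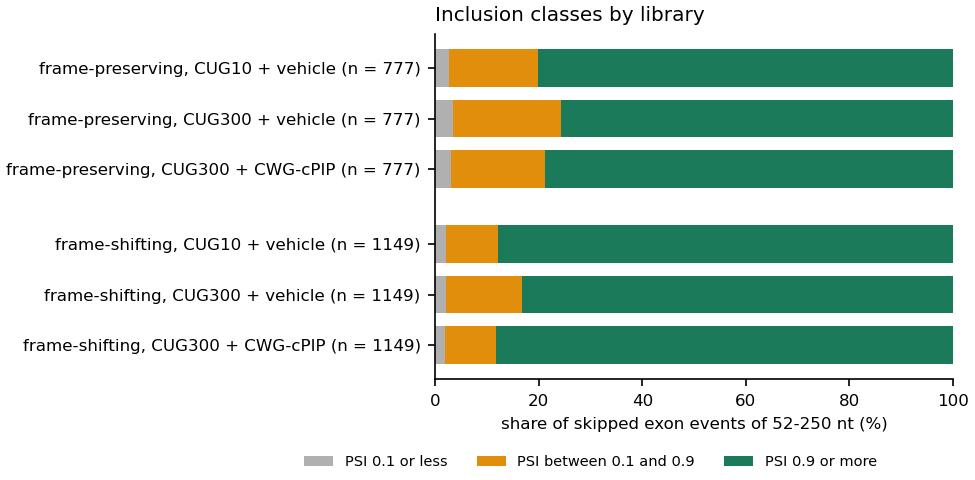
Share of skipped exon events of 52 to 250 nt in 3 classes of PSI, for frame-preserving (n = 777) and frame-shifting events (n = 1149) with at least 20 counts in all 3 libraries; each bar is 1 library of 1 mouse. The orange part, PSI between 0.1 and 0.9, takes 17.1% to 21% of frame-preserving events and 9.92% to 14.7% of frame-shifting events.

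The intermediate share differed with reading phase and, in 2 of the libraries, with length. Among exons of 52 to 99 nt it was 21.9% in CUG10 + vehicle, 21.9% in CUG300 + vehicle and 22.6% in CUG300 + CWG-cPIP. Among the 37 events of 200 to 250 nt it was 10.8%, 18.9% and 16.2%, so that the gap was smallest in CUG300 + vehicle. In CUG10 + vehicle it was 11.5% of 401 events that begin between codons, 22.5% of 191 events in phase 1 and 18.9% of 95 events in phase 2. The same order of phase 0 below phases 1 and 2 was measured in CUG300 + vehicle (16.5%, 24.1% and 22.1%) and in CUG300 + CWG-cPIP (12.5%, 23.6% and 24.2%). Exons in a 5′ UTR stood apart in level, with median PSI of 0.322, 0.393 and 0.449 over 11 events. At the lower length limit, the 21 deeper events of 54 nt had median PSI of 0.977, 0.959 and 0.967, and the 12 events of 51 nt, just outside it, had 0.895, 0.914 and 0.866. At the upper limit, the longest member at this depth was a 240-nt exon of P4ha1 with PSI of 1, 0.914 and 1, and the shortest exon beyond the limit, of 253 nt in Epn1, had 0.956, 0.963 and 0.969.

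The range of PSI over the 3 libraries was small for most exons. Its median was 0.044 and its 90th percentile 0.147, and 75 of 777 events (9.65%) had a range above 0.15. In 548 events (70.5%) PSI was 0.9 or more in every library, in 15 (1.93%) it was 0.1 or less in every library, and in 99 events (12.7%) of 90 genes it lay from 0.1 to 0.9 in every library. A share of 5.05% of frame-shifting events met this last condition. The exons of the 99 events had a median of 96 nt, were wholly coding in 81.4% and began in phase 0 in 43%. Those of the 548 events had a median of 111 nt, were coding in 93.1% and began in phase 0 in 62.8%.

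The 12 deepest of the exons with PSI from 0.1 to 0.9 in every library had PSI intervals that overlapped over the 3 mice, apart from those of Clta and Nsmf. Among the overlapping ones, intervals of the difference of CUG300 + CWG-cPIP from CUG10 + vehicle did not hold 0 for Aplp2 (-0.228 to -0.005) and Mbp (0.004 to 0.063). For Mbp the same was true of its difference from CUG300 + vehicle (0.008 to 0.07). Hnrnpd, Hnrnpab, Chtop and Ybx1 encode RNA-binding proteins. The 147-nt exon of Hnrnpd had PSI of 0.778 in CUG10 + vehicle, 0.789 with CUG300 + vehicle and 0.764 with CUG300 + CWG-cPIP, the order kept for the values below. Hnrnpab, a close relative, had a 141-nt exon, which like that of Hnrnpd begins late in the coding sequence (79% against 80.1% of the way in), at 0.208, 0.236 and 0.213. Mostly included in Hnrnpd and mostly skipped in Hnrnpab, each exon differed by at most 0.028 between libraries. Chtop, an mRNA export factor, had 0.764, 0.772 and 0.756 at a 138-nt exon, and Ybx1, a cold shock protein, had 0.802, 0.839 and 0.77 at a 90-nt exon.

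Other deep exons came from membrane, organelle and glial genes. Mff, the receptor for the mitochondrial fission enzyme, had 0.842, 0.828 and 0.824 at a 159-nt exon, and Ociad1, an endosomal and mitochondrial protein, had 0.804, 0.85 and 0.859 at a 153-nt exon, or 0.483, 0.573 and 0.478 where the preceding exon was longer. Bag6, a chaperone for tail-anchored proteins, had 0.76, 0.728 and 0.823 at a 147-nt exon. The 123-nt exon of Mbp, myelin basic protein, was mostly skipped after a 33-nt exon, with 331 inclusion and 612 skipping counts in CUG10 + vehicle, 243 and 470 in CUG300 + vehicle and 324 and 481 in CUG300 + CWG-cPIP, or PSI of 0.169, 0.163 and 0.202. After a 36-nt exon the same exon was nearly always included, at 0.989, 0.972 and 0.989. Apod, which encodes the lipid carrier apolipoprotein D, had 0.533, 0.561 and 0.551 at a 66-nt stretch that is not an annotated exon. The 168-nt exon of Aplp2, an App relative, encodes a Kunitz protease inhibitor domain and had 0.755, 0.653 and 0.634. Nsmf, a synapse-to-nucleus messenger, had 0.862, 0.828 and 0.715 at a 69-nt exon. Its level in CUG300 + CWG-cPIP was lower than in CUG10 + vehicle by 0.147 (interval of the difference -0.236 to -0.051), under the 0.15 limit used below.

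**Figure D2:**
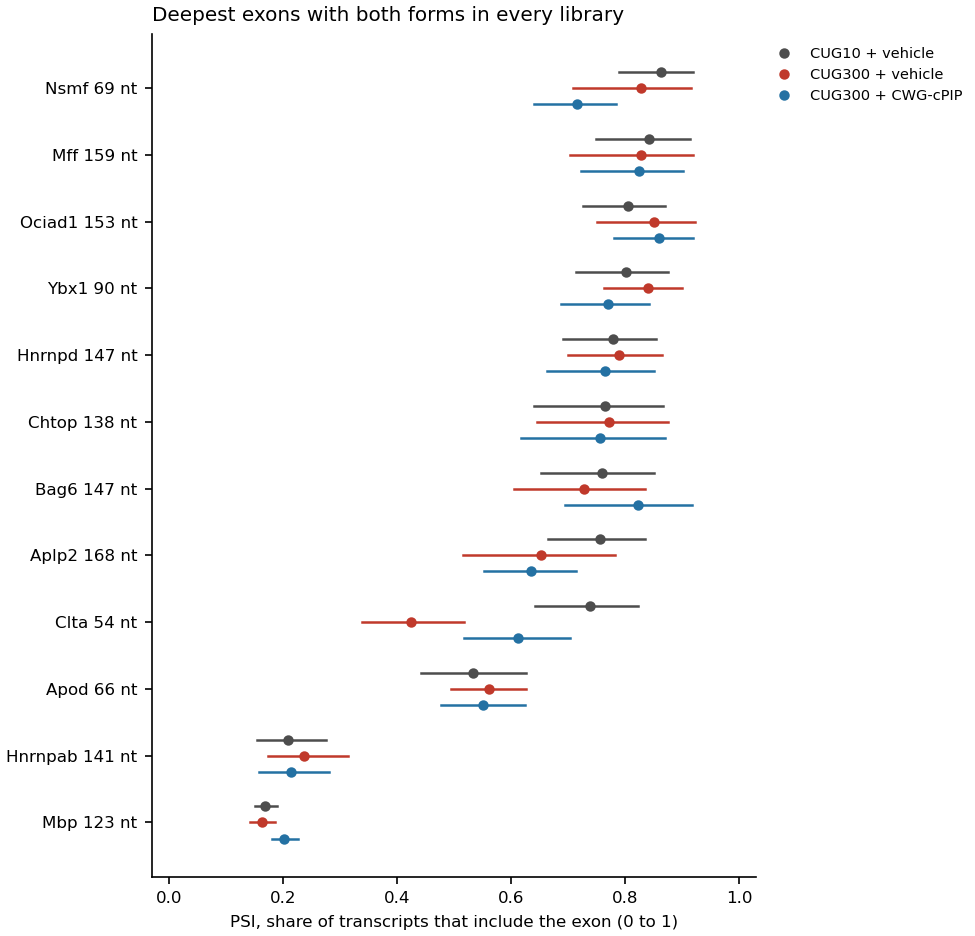
PSI (0 to 1) of the 12 deepest frame-preserving exons whose PSI lay from 0.1 to 0.9 in every library, with 95% Clopper-Pearson intervals; points are 1 mouse each and colours mark the 3 libraries. The 3 intervals overlap for 10 of the 12 exons, and the red CUG300 + vehicle point of Clta (0.425) sits apart from CUG10 + vehicle (0.738).

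Differences between libraries were called in 2 ways. An exon passed the size rule where each library of the pair had at least 20 counts, the PSI difference exceeded 0.15 and its 95% Newcombe interval did not hold 0. It passed the exact test where the two-sided Fisher's exact test on its counts gave a Benjamini-Hochberg adjusted p under 0.05 over all skipped exons listed in the pair, with the same difference in PSI. Both compare the reads of 2 libraries, not the conditions.

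Between CUG300 + vehicle and CUG10 + vehicle, 1682 frame-preserving events were listed and 663 had at least 20 counts in both. Of these 663, 21 (3.17%) passed the size rule, 7 with higher and 14 with lower inclusion in CUG300 + vehicle. Over all 1948 skipped exons at this depth, 2.21% passed, 0.565% higher and 1.64% lower. Frame-shifting exons of the same length passed in 12 of 1008 (1.19%). The share was higher among exons under 52 nt, 7 of 151 (4.64%), and was 2.38% among exons over 250 nt. The exact test was passed by 4 frame-preserving exons, in Enpp2, Hnrnpa2b1, Clta and Atp6v1h, against 0.11% of all 4558 events listed. The median difference over the 663 events was -0.01, and 279 of them (42.1%) were higher in CUG300 + vehicle. Over all skipped exons at this depth the values were close to these, with a median of -0.0095 and 41% higher.

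Enpp2 encodes autotaxin, a secreted lysophospholipase that makes lysophosphatidic acid. Its 75-nt exon adds 25 residues that mark the brain form of the enzyme. There were 58 inclusion and 36 skipping counts in CUG10 + vehicle, 49 and 270 in CUG300 + vehicle and 47 and 37 in CUG300 + CWG-cPIP. PSI was 0.444 (95% bounds 0.342 and 0.555), 0.083 (0.061 and 0.109) and 0.387 (0.286 and 0.5). The CUG300 + vehicle library was low and the other two overlapped. Inclusion counts were nearly the same in the 3 libraries, while skipping counts were highest in CUG300 + vehicle. The difference of CUG300 + vehicle from CUG10 + vehicle was -0.362 (interval -0.467 to -0.26; Fisher's exact test, adjusted p = 5.7e-14).

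Markers of other cells moved with this library. All counts at Enpp2 events came to 610 CPM (counts scaled to 1 total over all events of every type) in CUG10 + vehicle, 3581 in CUG300 + vehicle and 605 in CUG300 + CWG-cPIP. The choroid plexus list, of which 4 of 13 genes had alternative events, summed to 804, 71737 and 762 CPM, nearly all from Ttr, the transthyretin gene, at 171, 67703 and 112. All 4 genes were higher in CUG300 + vehicle than in CUG10 + vehicle. The microglia and immune list (13 of 29 genes measured) summed to 3422, 25304 and 6244 CPM, with 12 of 13 genes higher in CUG300 + vehicle than in CUG10 + vehicle. The neuron list (10 of 19 genes) summed to 18914, 8607 and 17406 CPM, with 0 of 10 genes higher. The astrocyte list (3 of 12 genes) summed to 663, 1464 and 1266 CPM, mostly from Gfap at 518, 1402 and 961. Its sum was higher in both CUG300 libraries, but only 1 of its 3 genes was higher in CUG300 + vehicle than in CUG10 + vehicle. The endothelial and mural list (3 of 13) summed to 297, 476 and 496 CPM, also with 1 of 3 genes higher. The oligodendrocyte list (6 of 17) summed to 9486, 11015 and 10437 CPM, with 3 of 6 genes higher. Enpp2 is itself on the choroid plexus and oligodendrocyte lists. Without it the choroid plexus sums were 194, 68156 and 157 CPM, and the oligodendrocyte sums 8875, 7434 and 9833, lowest in place of highest in CUG300 + vehicle. None of the measured marker genes was at 0 in a library. The part of these cells in the exon differences, those of CUG300 + CWG-cPIP from CUG10 + vehicle included, was not tested, and in bulk tissue fewer cells of a type and less RNA per cell cannot be told apart.

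Hnrnpa2b1 encodes an RNA-binding splicing regulator, and its 120-nt exon codes for 40 residues of the glycine-rich region. CUG10 + vehicle had 235 inclusion and 4 skipping counts, CUG300 + vehicle 132 and 21 and CUG300 + CWG-cPIP 290 and 3. These gave PSI of 0.957 (bounds 0.896 and 0.988), 0.706 (0.601 and 0.8) and 0.974 (0.926 and 0.994). CUG300 + vehicle was again the low library, and the other two overlapped. Its difference from CUG10 + vehicle was -0.252 (interval -0.357 to -0.147; Fisher's exact test, adjusted p = 0.00333). Without length normalisation, as the plain share of inclusion counts, the difference was -0.121, under the size limit.

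Clta encodes clathrin light chain a of endocytic coats. Its 54-nt exon adds 18 residues and lies beside a 36-nt exon, and together they make the neuronal insert. Between the 112-nt exon before it and the final 446-nt exon, there were 112 inclusion and 23 skipping counts in CUG10 + vehicle, 69 and 54 in CUG300 + vehicle and 101 and 37 in CUG300 + CWG-cPIP. PSI was 0.738 (bounds 0.641 and 0.822), 0.425 (0.338 and 0.518) and 0.612 (0.518 and 0.703), and the difference of CUG300 + vehicle from CUG10 + vehicle was -0.313 (interval -0.426 to -0.184; Fisher's exact test, adjusted p = 0.00333). The same 54-nt exon was listed again with the 36-nt exon as its following neighbour. There PSI was 0.913, 0.941 and 0.849, and the difference was 0.028 (interval -0.045 to 0.096). The lower inclusion was thus measured against the junction that skips both exons and not against the one that keeps the 36-nt exon. Both events share reads inside the 54-nt exon.

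Atp6v1h encodes the H subunit of the vacuolar proton pump, which acidifies synaptic vesicles and lysosomes, and the 54-nt exon separates its longer and shorter forms. It was the exon that was higher in CUG300 + vehicle by the exact test. There were 13 inclusion and 58 skipping counts in CUG10 + vehicle, 27 and 23 in CUG300 + vehicle and 14 and 33 in CUG300 + CWG-cPIP, or PSI of 0.115 (bounds 0.061 and 0.193), 0.404 (0.273 and 0.553) and 0.197 (0.108 and 0.32). CUG300 + vehicle was the high library. The difference was 0.29 (interval 0.146 to 0.434; Fisher's exact test, adjusted p = 0.0436), and with 1 event per exon in the test its adjusted p was 0.0585. In that setting Clta is represented by the event with the 36-nt exon and is not called either, which leaves 2 exons, those of Enpp2 and Hnrnpa2b1.

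The remaining 17 exons past the size rule did not pass the exact test. Among those lower in CUG300 + vehicle, Ube2v2, a ubiquitin-conjugating enzyme variant, had PSI of 0.861 in CUG10 + vehicle, 0.519 in CUG300 + vehicle and 0.824 in CUG300 + CWG-cPIP at a 126-nt exon, a difference of -0.342 (interval -0.519 to -0.12). Fmnl1, a formin that builds actin filaments, had 0.969, 0.658 and 0.819 at a 99-nt exon, and Bclaf1, a nuclear RNA-associated protein, had 1, 0.766 and 0.953 at a 147-nt exon. In these 3 exons CUG300 + vehicle was lowest. Cdc123, a translation initiation assembly factor, had 0.922, 0.735 and 0.961 at a 123-nt exon. Zfp207, a spindle and splicing-linked zinc finger protein, had 0.95, 0.674 and 0.907 at a 93-nt exon, and Gpbp1, a promoter-binding protein, had 0.728, 0.445 and 0.702 at a 60-nt exon. The 105-nt exon of Immt, which organises mitochondrial cristae, had 0.647, 0.355 and 0.788, and the 81-nt exon of Fez2 had 0.818, 0.556 and 0.877. Pcbp2, a poly(C)-binding protein, had 0.597, 0.403 and 0.59 at a 93-nt exon. With another following exon it was at 1, 1 and 0.932. For Bclaf1 and Cdc123 the plain share of inclusion counts moved by -0.093 and -0.088, under the size limit.

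Ifi27, an interferon-induced gene, was among the lower exons. ItIfi27 had 94 inclusion and 6 skipping counts in CUG10 + vehicle, 207 and 34 in CUG300 + vehicle and 76 and 7 in CUG300 + CWG-cPIP at its 135-nt exon, or PSI of 0.847, 0.683 and 0.794. Its difference was -0.164 (interval -0.278 to -0.012), but -0.081 as a plain share of counts and 0.044 (interval -0.048 to 0.21) where the same exon was measured with another following exon. All Ifi27 events together had 459, 1097 and 448 CPM.

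Of the 7 exons with higher inclusion in CUG300 + vehicle, Nbr1, an autophagy receptor, had PSI of 0.592, 1 and 0.676 at a 111-nt exon, with 21 inclusion and 0 skipping counts in CUG300 + vehicle. Fgfr1op2 had 0.25, 0.639 and 0.177 at a 114-nt exon, a difference of 0.389 (interval 0.118 to 0.594). Its CUG300 + CWG-cPIP value rests on 17 counts, under the depth limit. Dnaja3, a mitochondrial co-chaperone, had 0.141, 0.368 and 0.268 at a 117-nt exon, and Stx4a, a plasma membrane SNARE, had 0.538, 0.755 and 0.655 at a 99-nt exon, a difference of 0.217 or, as a plain share of counts, 0.147. In each of these 4 exons CUG300 + vehicle had the highest PSI. Nrcam, a cell adhesion molecule of axons, had 0.199, 0.42 and 0.432 at a 153-nt exon, so that both CUG300 libraries were above CUG10 + vehicle.

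**Figure D3:**
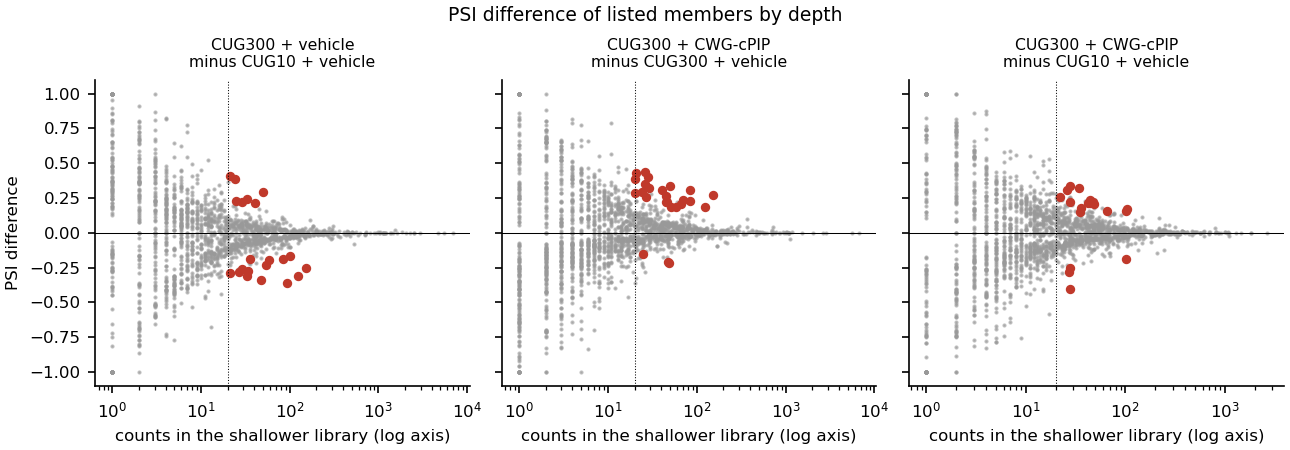
PSI difference of each listed frame-preserving exon (grey points) against the counts in the shallower library of the pair (log axis), for the 3 pairs, with exons past the size rule in red; the dotted line marks 20 counts. The spread narrows to the right, and no red point lies left of the line.

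Between CUG300 + CWG-cPIP and CUG300 + vehicle, 1875 frame-preserving events were listed and 681 reached the depth limit. The size rule was passed by 25 of them (3.67%), 22 with higher and 3 with lower inclusion in CUG300 + CWG-cPIP. Over all 1953 skipped exons at this depth the share was 2.36%, with 1.84% higher and 0.512% lower, and over frame-shifting exons of the same length it was 1.12% (11 of 983). The exact test was passed by 5 frame-preserving exons, among them those of Enpp2, Hnrnpa2b1, Srsf9 and Prdx6, against 0.183% of all 4916 events listed. The median difference was 0.01, and 400 of 681 events (58.7%) were higher in CUG300 + CWG-cPIP. Over all skipped exons at this depth the median was 0.0103 and 59.7% were higher. This comparison shares the CUG300 + vehicle library with the one above, so exons that stood apart in that library entered both.

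For Enpp2 the difference was 0.304 (interval 0.205 to 0.411; Fisher's exact test, adjusted p = 1.5e-09), and for Hnrnpa2b1 it was 0.268 (interval 0.17 to 0.372; Fisher's exact test, adjusted p = 7.7e-05) or 0.127 as a plain share of counts. Clta differed by 0.187 (interval 0.06 to 0.306; Fisher's exact test, adjusted p = 0.558), and by -0.092 where the 36-nt exon followed. Atp6v1h differed by -0.207 (interval -0.365 to -0.039), past the size rule with lower inclusion.

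Srsf9 is a serine/arginine-rich splicing factor, and its 90-nt exon is annotated in the 3′ UTR. PSI was 0.26 (bounds 0.159 and 0.392) in CUG10 + vehicle, 0.131 (0.075 and 0.209) in CUG300 + vehicle and 0.467 (0.322 and 0.626) in CUG300 + CWG-cPIP. The treated library was highest, with a difference of 0.336 from CUG300 + vehicle (interval 0.18 to 0.487; Fisher's exact test, adjusted p = 0.00636) and of 0.207 from CUG10 + vehicle (interval 0.024 to 0.377). Prdx6, an antioxidant enzyme, had a 111-nt exon that includes untranslated sequence with 5 inclusion and 22 skipping counts, 8 and 17, and 1 and 73 in the 3 libraries. Its PSI of 0.083, 0.158 and 0.005 put CUG300 + CWG-cPIP lowest, with a difference of -0.153 from CUG300 + vehicle (interval -0.293 to -0.068; Fisher's exact test, adjusted p = 0.0194).

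**Figure D4:**
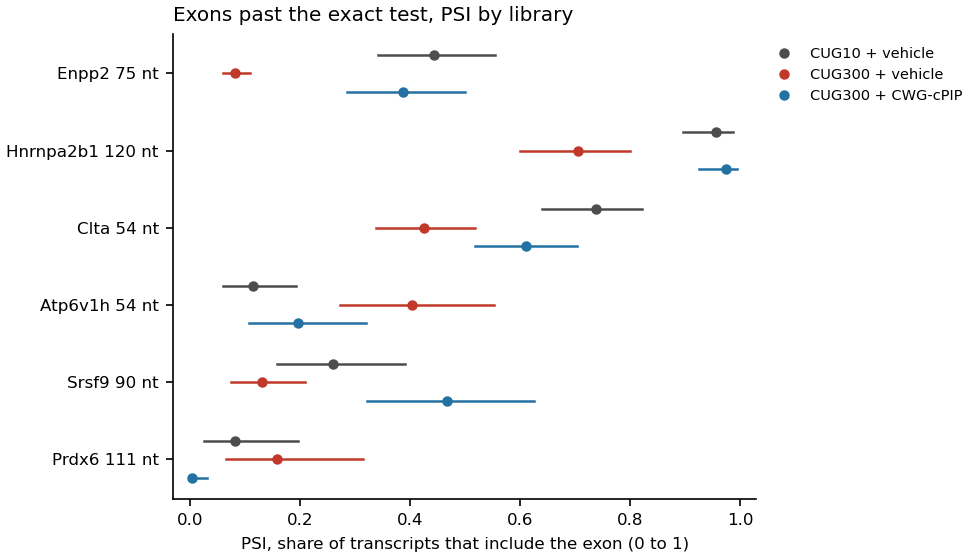
PSI (0 to 1) of 6 frame-preserving exons that passed the exact test in at least 1 pair, with 95% Clopper-Pearson intervals; each point is 1 mouse. CUG300 + vehicle is the lowest point for Enpp2 (0.083), Hnrnpa2b1 (0.706), Clta (0.425) and Srsf9 (0.131) and the highest for Atp6v1h (0.404) and Prdx6 (0.158). For Srsf9 and Prdx6 the CUG300 + vehicle interval overlaps that of CUG10 + vehicle, and CUG300 + CWG-cPIP (0.467 and 0.005) lies at the other end.

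Among the other exons with higher inclusion in CUG300 + CWG-cPIP than in CUG300 + vehicle, some stood out by a low value in CUG300 + vehicle and others by a high value in the treated library. Of the first kind, Cdc123 differed by 0.226 (interval 0.086 to 0.372), Immt by 0.433 (0.14 to 0.636), Ube2v2 by 0.305 (0.038 to 0.497) and Fez2 by 0.321 (0.035 to 0.534), with the PSI values given above. Dync1i2, a dynein intermediate chain, had PSI of 0.701, 0.485 and 0.707 at a 60-nt exon, and Aftph, a clathrin adaptor partner, had 0.733, 0.474 and 0.827 at an 81-nt exon. Csnk1d, casein kinase 1 delta, had 0.491, 0.265 and 0.554 at a 63-nt exon. Of the second kind, Faim, an inhibitor of Fas-induced apoptosis, had 0.565, 0.435 and 0.871 at a 57-nt exon, and Ybx3, a cold shock domain protein, had 0.28, 0.208 and 0.612 at a 207-nt exon. Rbm7, which helps target RNA to the exosome, had 0.208, 0.182 and 0.57 at a 105-nt exon, with 18 counts in CUG10 + vehicle, under the depth limit. Adgrb2, an adhesion G protein-coupled receptor, had 0.324, 0.272 and 0.494 at a 99-nt exon, and the 81-nt exon of the imprinted gene Nnat, neuronatin, had 0.732, 0.682 and 0.887, a difference of 0.205 or, as a plain share, 0.125.

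Bin1, a membrane-bending endocytic protein whose exons are mis-spliced in DM1 muscle, had a 72-nt exon at 0.741, 0.63 and 0.868, a difference of 0.239 (interval 0.061 to 0.388). With a 24-nt exon before it, the same Bin1 exon was at 1, 1 and 0.944. Beside Atp6v1h and Prdx6, the exon with lower inclusion was a 219-nt exon of Irgm1, an interferon-induced GTPase. It had 4 inclusion and 1 skipping counts in CUG10 + vehicle, 60 and 24 in CUG300 + vehicle and 22 and 27 in CUG300 + CWG-cPIP, or PSI of 0.503, 0.387 and 0.171. Its difference was -0.216 (interval -0.349 to -0.077), and the CUG10 + vehicle value rests on 5 counts.

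Between CUG300 + CWG-cPIP and CUG10 + vehicle, a pair without the CUG300 + vehicle library, 1996 frame-preserving events were listed and 891 reached the depth limit. The size rule was passed by 19 (2.13%), 15 with higher and 4 with lower inclusion in CUG300 + CWG-cPIP, beside 1.65% of all 2363 skipped exons at this depth, 1.02% higher and 0.635% lower. Frame-shifting exons of the same length passed in 1% (11 of 1096), exons under 52 nt in 3.65% (8 of 219) and exons over 250 nt in 0.637%. The exact test was passed by 0 frame-preserving exons and by 0.0196% of all 5106 events listed. At an unadjusted p under 0.05 in Fisher's exact test, with a difference above 0.15, there were 28 of 1996 frame-preserving events (1.4%), close to the 1.18% of all skipped exons listed. The median difference was 4.0e-04, and 446 of 891 events (50.1%) were higher, beside 50% of all skipped exons at this depth.

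Ybx3 had the largest higher difference among these 19, 0.333 (interval 0.053 to 0.557), and Faim one of 0.306 (0.023 to 0.507). Nrcam was higher by 0.233 (0.058 to 0.4). Phactr1, a regulator of actin and protein phosphatase 1, had PSI of 0.081, 0.116 and 0.257 at a 207-nt exon, a difference of 0.177 (0.055 to 0.31), and CUG300 + vehicle had 12 counts there. Strn3, a striatin scaffold, had 0.164, 0.147 and 0.422 at a 141-nt exon, with 6 counts in CUG300 + vehicle, and a difference of -0.127 where another exon preceded it. Zfr, a zinc finger RNA-binding protein, had 0.725, 1 and 0.937 at a 192-nt exon, with 4 counts in CUG300 + vehicle, and its difference was 0.077 as a plain share of counts. Adgrb2 differed by 0.169 (0.044 to 0.287), but by -0.041 with another following exon, and Nnat by 0.155 (0.025 to 0.285), or 0.091 as a plain share.

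The 4 exons with lower inclusion in CUG300 + CWG-cPIP than in CUG10 + vehicle were in Bin1, Rhot1, Pja2 and Ppfia4. A 108-nt exon of Bin1 had 48 inclusion and 1 skipping counts in CUG10 + vehicle, 24 and 2 in CUG300 + vehicle and 21 and 7 in CUG300 + CWG-cPIP, or PSI of 0.951, 0.83 and 0.55, and a difference of -0.402 (interval -0.608 to -0.143). Measured after the 24-nt exon, the same exon had 0.583, 0.469 and 0.633, and the difference was 0.05. Rhot1, which links mitochondria to motors, had 0.489, 0.334 and 0.205 at a 123-nt exon, a difference of -0.284 (-0.475 to -0.063). Pja2, a ubiquitin ligase, had 0.568, 0.562 and 0.38 at a 186-nt exon, or a difference of -0.138 as a plain share of counts. Ppfia4, a liprin of the presynaptic active zone, had 0.536, 0.322 and 0.286 at a 111-nt exon. In all 4 exons the CUG300 + vehicle value lay between those of the other libraries.

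**Figure D5:**
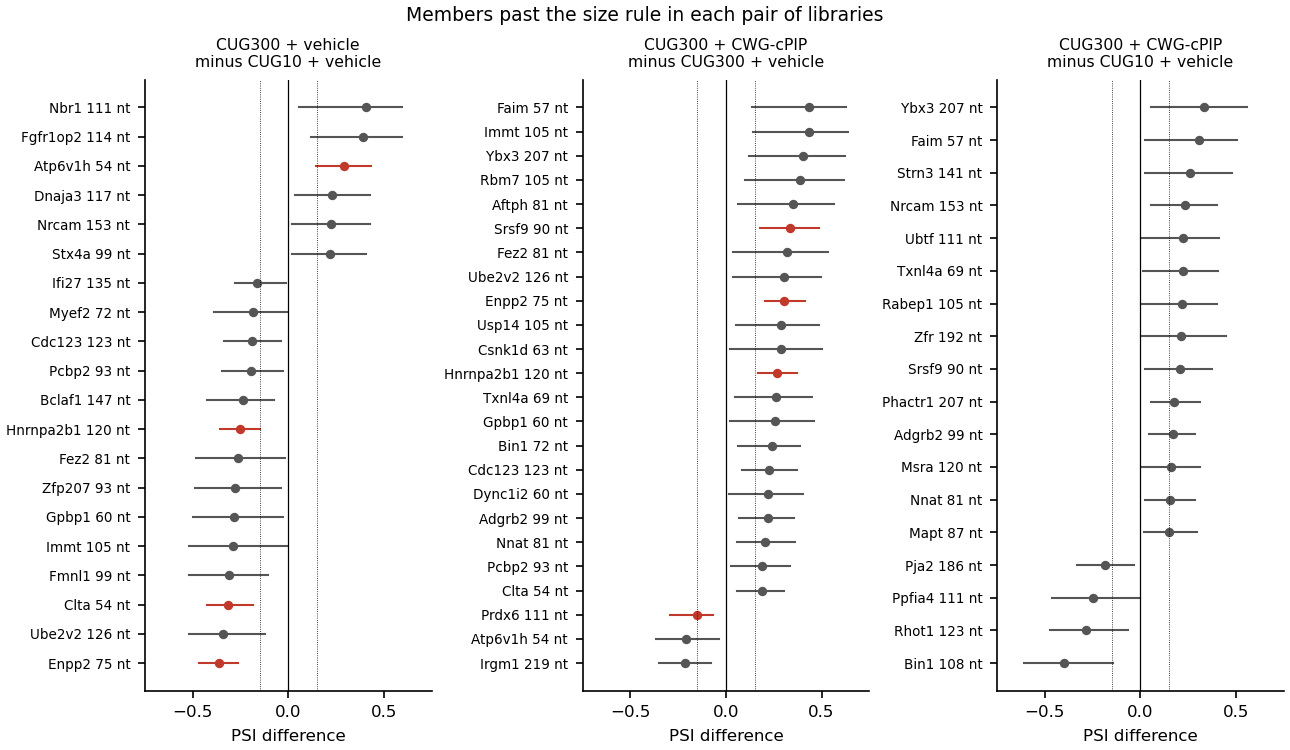
PSI differences with 95% Newcombe intervals of frame-preserving exons past the size rule in each pair, the first-named library minus the second (20, 24 and 18 exons); red marks those that also passed the exact test and dotted lines mark differences of 0.15 in either direction. Most exons lie left of 0 in the first panel (14 of 20), and right of 0 in the second (21 of 24) and the third (14 of 18).

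Tetramers were compared by count only among wholly coding exons named in the text whose sequences were read. Of these, Ybx3 and Phactr1 carried the most, 7 each in 207 nt, and both are shown for that reason, with the tetramers in capitals. They were chosen after their values were seen. Ybx3 lies on the minus strand at chr6:131375974-131376180 and Phactr1 on the plus strand at chr13:43059571-43059777.
Ybx3 exon of 207 nt: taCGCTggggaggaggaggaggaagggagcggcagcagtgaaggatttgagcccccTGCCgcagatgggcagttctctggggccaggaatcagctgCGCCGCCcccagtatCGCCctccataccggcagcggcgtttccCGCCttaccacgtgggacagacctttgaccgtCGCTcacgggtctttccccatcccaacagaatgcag
Phactr1 exon of 207 nt: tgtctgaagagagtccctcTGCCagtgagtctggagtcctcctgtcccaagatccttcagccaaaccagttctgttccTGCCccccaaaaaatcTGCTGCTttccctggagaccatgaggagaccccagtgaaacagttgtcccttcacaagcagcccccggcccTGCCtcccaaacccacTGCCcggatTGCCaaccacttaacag

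The density of these tetramers was 3.38 per 100 nt in both and 5.05 in the shorter 99-nt exon of Adgrb2, against the median of 1.26 over all the exons. By direction, the 14 exons lower in CUG300 + vehicle than in CUG10 + vehicle held at least 1 tetramer in 50% and had a median of 0.34 per 100 nt, and the 7 higher exons held one in 71.4% with a median of 0.901. In CUG300 + CWG-cPIP against CUG300 + vehicle, the 22 higher exons held one in 54.5% with a median of 1.01, and against CUG10 + vehicle the 15 higher exons held one in 80% with a median of 1.67. The 3 and 4 lower exons of these pairs all held one, with medians of 0.901 and 2.57. These sets are small, and their exons are also shorter or longer than the whole, with medians from 85.5 to 117 nt. TGCATG was in 14.3% of the 7, in 25% of the 4 and in 0% of the other sets.

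Exons of genes fixed by name, because earlier work on DM1 and brain splicing centres on them, were read whatever their values. App, the amyloid precursor protein, had 4 such exons. The 168-nt exon that encodes the Kunitz protease inhibitor domain, which neurons mostly leave out, had 43 inclusion and 379 skipping counts in CUG10 + vehicle, 43 and 142 in CUG300 + vehicle and 55 and 321 in CUG300 + CWG-cPIP. PSI was 0.034 (bounds 0.024 and 0.045), 0.085 (0.06 and 0.116) and 0.05 (0.037 and 0.065), with CUG300 + vehicle highest. The difference from CUG10 + vehicle was 0.051 (interval 0.025 to 0.083; Fisher's exact test, adjusted p = 0.04), which is under the size limit. This exon was singled out after its values were seen. The 57-nt exon next to it had 0.207, 0.145 and 0.386 on few counts, the 54-nt exon had 0.978, 0.954 and 0.954, and the deepest, of 222 nt, was included in all but 1 of its counts.

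Grin1, the obligatory NMDA receptor subunit, had both of its known frame-preserving cassettes. The 111-nt exon, which encodes the C1 segment of the cytoplasmic tail, had PSI of 0.642 (bounds 0.547 and 0.733), 0.713 (0.558 and 0.844) and 0.598 (0.495 and 0.7). Where its following exon was shorter, the same exon had 0.523, 0.622 and 0.447. The 63-nt exon, the extracellular N1 cassette, had 0.161, 0.188 and 0.157, with 10 counts in CUG300 + vehicle. All intervals overlapped. Mapt, tau, had 3. The 93-nt exon of a microtubule-binding repeat had 0.917, 0.914 and 1, and an 87-nt exon of an amino-terminal insert had 0.084 on 7 inclusion and 35 skipping counts in CUG10 + vehicle, 0.116 on 2 and 7 in CUG300 + vehicle and 0.235 on 14 and 21 in CUG300 + CWG-cPIP. The difference of the treated library from CUG10 + vehicle, 0.15 (interval 0.021 to 0.296), passed the size rule at its edge. The other 87-nt exon had 0.315 in both CUG10 + vehicle and CUG300 + CWG-cPIP, and 1 skipping count alone in CUG300 + vehicle.

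For the classic DM1 exons of Mbnl1 and Camk2d the depth did not allow a comparison. Mbnl1 encodes the MBNL1 protein itself, and its 54-nt exon, which promotes nuclear localisation, had 2 inclusion and 1 skipping counts in CUG10 + vehicle, 2 and 0 in CUG300 + vehicle and 5 and 7 in CUG300 + CWG-cPIP. Camk2d, a calcium/calmodulin-dependent kinase subunit, had 3 and 0, 0 and 2, and 8 and 2 at a 60-nt exon. Ppp1r12a, the myosin phosphatase targeting subunit, had 9 and 3, 19 and 0, and 10 and 2 at a 171-nt exon, and PSI of 0.475, 1 and 0.602. Its difference of CUG300 + vehicle from CUG10 + vehicle was 0.525 (interval 0.035 to 0.79) on counts under the depth limit.

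Gene lists are read against the shares of all frame-preserving exons past the size rule, 3.17%, 3.67% and 2.13% in the 3 pairs, and with this few events at depth 1 or 2 exons decide a list's share. Of 52 genes on the list of DM1 and MBNL brain targets, 32 had a frame-preserving exon. In CUG300 + vehicle against CUG10 + vehicle, 18 events of 9 of these genes had the depth and 0 passed the size rule, and the median absolute difference was 0.0567 beside 0.0381 over all 663 events. In CUG300 + CWG-cPIP against CUG300 + vehicle, 2 of 17 events were higher (Bin1 and Csnk1d), and in CUG300 + CWG-cPIP against CUG10 + vehicle 1 was higher (Mapt) and 1 lower (Bin1) of 28. Among RNA-binding splicing regulators, 0 were higher and 2 lower of 17 events in the first pair (Hnrnpa2b1 and Pcbp2), 4 higher and 0 lower of 22 in the second (Hnrnpa2b1, Pcbp2, Rbm7 and Srsf9) and 2 higher of 28 in the third (Srsf9 and Zfr). For synaptic adhesion and release genes the counts were 1 higher and 1 lower of 22 (Nrcam and Clta), 3 higher of 23 (Bin1 and Clta among them), and 2 higher and 2 lower of 36 (Nrcam among the former, Bin1 and Ppfia4 the latter).

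Glutamate receptor and postsynaptic density genes had 16, 14 and 30 events at depth and 0 past the size rule in each pair, with median absolute differences of 0.0269, 0.0337 and 0.0397 beside 0.0381, 0.0393 and 0.0441 over all the exons. Cytoskeleton and motor genes had 1 lower of 15 (Fmnl1), 1 higher of 13 (Dync1i2) and 1 higher of 32 (Mapt). Ion channels and transporters had only 2, 3 and 7 events at depth. Of these, Atp6v1h alone passed the size rule, higher in the first pair and lower in the second. Both forms were common in several lists. PSI lay from 0.1 to 0.9 in every library in 7 of 15 events (46.7%) of cytoskeleton and motor genes, among them Add3, Cttn, Dbn1, Dync1i2 and Evl. The share was 10 of 26 (38.5%) for synaptic adhesion and release genes, among them Ap2a1, Epn1, Madd and Picalm. For DM1 and MBNL targets it was 7 of 19 (36.8%), events of only 4 genes (Bin1, Csnk1d, Grin1 and Mprip). These include both events of the 111-nt Grin1 exon, and Bin1 is also on the synaptic list. For splicing regulators the share was 7 of 20 (35%), among them Hnrnpa1, Hnrnpk and Hnrnpd. It was 2 of 18 (11.1%) for glutamate receptor and postsynaptic density genes, both events of the same 111-nt Grin1 exon, beside 12.7% over all the exons.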

How the data were processed

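Hippocampal RNA-Seq of 3 mice was used, 1 in each group, so groups were compared as libraries. Per the submitters' processing notes the authors trimmed reads with Trim Galore 0.6.6 and aligned them with STAR 2.7.9a and RSEM 1.3.3 to mm10 (DESeq2 1.36.0 is named for gene expression, not analysed here), and the study's methods name rMATS for splicing. The authors deposited inclusion and skipping counts (junction and exon reads) for each event and library, the inclusion level as a fraction, effective lengths, and p-values, false discovery rates and differences of their own comparisons, which were not used. The skipping length of 74 nt corresponds to reads that are 1 nt longer, whereas the methods give another length, which was not resolved. How multiply aligned reads and strand were counted is not given in the sources used here.

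Recomputed PSI differed from the deposited fraction by at most 0.0005, and counts of a library in 2 tables were identical in 20670 of 20670 comparisons. Events were matched by gene symbol, chromosome, strand and all coordinates, and 4066 of 4203 symbols matched GENCODE M21. Intervals were 95% Clopper-Pearson for PSI and 95% Newcombe for differences, both carried through the length normalisation, and cover counting error only. They and the exact test treat counts as independent. No molecular identifiers are named, so repeated copies of 1 molecule could not be told apart. Fisher's exact test (scipy 1.17.1) was adjusted over all listed skipped exons of a pair, and calls were tested on simulated data. The simulated counts held counting error only, so they cannot check the calls against spread between mice. Text names, with 1 event per gene, up to 12 exons per direction and pair past the size rule (intervals farthest from 0), exons past the exact test, up to 4 size-rule exons per gene list and pair, the 12 deepest exons with PSI from 0.1 to 0.9 in all 3 libraries, and App, Camk2d, Ppp1r12a, Mbnl1, Grin1 and Mapt. Members, lists and rules were chosen with earlier results of these data known. Alternatives were count minimums of 10 and 50, PSI limits of 0.1 and 0.25, plain shares of counts, 1 event per exon, and other adjustments. Results for a few exons are not reported here, though they stay in the counts. Introns and protein sequences were not used here.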

Additional observations from a re-analysis of the deposited data

Results flagged for a closer look

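Summed over alternative events of every type, the choroid plexus marker list stood at 71737 CPM in CUG300 + vehicle, against 804 with CUG10 + vehicle and 762 with CWG-cPIP. It is raised here because it is a signal outside the exon inclusion levels and above that of the CUG10 + vehicle control. Its part in the exon differences was not tested. Groups of 1 mouse allowed no search for libraries that lie apart within a group.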

How the results depend on the processing

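The number of exons past the size rule followed the depth and size limits. Between CUG300 + vehicle and CUG10 + vehicle it was 21, and became 34 with at least 10 counts, 8 with at least 50 and 12 with a PSI difference above 0.25. Between CUG300 + CWG-cPIP and CUG300 + vehicle it was 25, and became 9 with at least 50 counts and 14 above 0.25. For CUG300 + CWG-cPIP against CUG10 + vehicle it was 19, and became 29, 4 and 7 in the same 3 settings. By the exact test with 1 event per exon, 2 exons rather than 4 passed between CUG300 + vehicle and CUG10 + vehicle. With at least 10 counts, intermediate PSI took 24.4%, 29.7% and 25.1% of events in CUG10 + vehicle, CUG300 + vehicle and the treated library, and the median of the last was 0.977. With at least 50 counts the shares were 12.5%, 12.5% and 11.2% and the medians 0.995, 0.986 and 0.996. As plain shares of inclusion counts they were 12.6%, 13.0% and 12.7%, with medians of 0.996, 0.99 and 0.995. At 50 counts the intermediate share of CUG300 + vehicle was thus no longer above that of CUG10 + vehicle, and stayed above that of the treated library.

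Of 61 differences of named exons, 50 kept their call as plain shares and 11 fell under it. Measured between other neighbouring exons, the sign turned for Adgrb2 (-0.041) and the 108-nt exon of Bin1 (0.05) in CUG300 + CWG-cPIP against CUG10 + vehicle, and for Strn3 (-0.127). It also turned for Clta (0.028) and Ifi27 (0.044) in CUG300 + vehicle against CUG10 + vehicle, and for Clta (-0.092), the 72-nt exon of Bin1 (-0.056) and Pcbp2 (-0.068) in CUG300 + CWG-cPIP against CUG300 + vehicle. Of these differences, only that of -0.092 for Clta had an interval without 0 (-0.173 to -0.01). Rhot1 kept its sign in CUG300 + CWG-cPIP against CUG10 + vehicle (-0.35, interval -0.596 to -0.006), on 11 counts in the shallower library. The cause of the turned signs was not tested. No paired analysis was possible because each group has 1 mouse. Depth limits every count: 777 of 2450 events had 20 counts in every library.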
